A study of Mus musculus with 9 samples.

Results

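The ETS transcription factors described here are 10 mouse genes, Etv1, Etv5, Etv6, Ets1, Ets2, Elf4, Elk1, Elk3, Fli1 and Erf, chosen by family membership and read from the rows of the expression table that carry their RefSeq transcripts. All 10 were among the 14771 named genes of the table, each with 1 transcript row, and all 10 were among the 10576 genes that passed the filter on low values. RNA was sequenced from 9 libraries in 3 groups of 3. Astroglia (AG; AG_1, AG_2 and AG_3) came from the C57BL/6 strain, and their genotype is given as p53 DN with an Nf1 shRNA. Tumour cells of the brainstem (BS; BS_287, BS_295 and BS_296) and of the olfactory bulb (OB; OB_257, OB_287 and OB_295) had the strain entry 129;C57BL/6 mix and a genotype of Foxr2 overexpression with p53 cko. All 3 groups thus carry a p53 alteration, of a different kind in astroglia and in tumour cells. Strain, p53 allele, the Nf1 shRNA and Foxr2 differ together between AG and the tumours and cannot be told apart. The labels give no age and no promoter or Cre line for the alleles. They also do not say that the libraries within a group are separate animals or cultures, so the p-values here reflect only library-to-library spread, part or all of which may be technical.

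ETS factors share a winged helix-turn-helix domain that binds DNA around a GGAA core, and the family holds both activators and repressors. Several are end points of receptor tyrosine kinase, RAS and ERK signalling: ERK phosphorylates ELK1, ETS1 and ETS2 and raises their activity, removes the repressor ERF from the nucleus, and relieves repression of the PEA3 group genes (Etv1, Etv4, Etv5) by Capicua, the product of Cic. In the developing brain Etv1 and Etv5 act downstream of fibroblast growth factors and other receptor ligands in glial precursors and neurons. FOXR2, the forkhead factor overexpressed in these tumours, has been linked to ETS activity in other tumours. RNA levels do not measure phosphorylation or protein, on which much of ETS activity depends.

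Values are normalized reads, meaning the reads of a transcript divided by 1 size factor per library. Recovered reads per AG library ran from 14987773 to 19868282, per BS library from 12680832 to 15282668 and per OB library from 11300273 to 13927771. Foxr2 had 1 read in the whole AG group and 9526 ± 2707 normalized reads in BS and 5763 ± 1168 in OB (mean ± SD, n = 3). Nf1 was at 5309 ± 830 in BS and 5823 ± 2434 in OB, against 1464 ± 127 in AG. Trp53, the p53 gene, was low in all libraries, from 17.7 to 51.4 normalized reads, and the groups overlapped. Summed over 9 oligodendrocyte precursor markers, normalized reads ran from 69774 to 125531 in BS and 55796 to 120558 in OB, against 25.8 to 30.6 in AG. Olig1, Olig2, Cspg4, Bcan, Ncan and Ptprz1 were above AG in every tumour library. Pdgfra was below the AG range (3.94 to 8.71) in BS_287 (2.52) and OB_257 (1.11), and above it in the other tumour libraries. In BS_287, Gpr17 was at 0 and Sox10 at 3.35, close to AG (at most 1.97 and 2.18). The AG libraries held 89747 to 103473 normalized reads of 7 mesenchymal markers, against 41.6 to 51.2 in BS and 14.4 to 192 in OB. Most of the AG sum came from Acta2 (52507 to 55942) and Col1a1 (35280 to 46040). Col1a2, Col3a1, Fn1 and Dcn were also lower in every tumour library than in AG. Lum was not, at 0.834 to 2.96 in AG, 5.33 in BS_295 and 8.69 in OB_295. The astroglia label was only partly met, read from 7 astrocyte markers of 9 listed. Gfap (0.834 to 3.27) and Aqp4 (1.09 to 1.97) were close to 0 in AG. Aldoc (at most 1.09), Aldh1l1 (at most 5.91) and S100b (at most 27.2) were also low there. Gja1 (4961 to 5396) and Slc1a3 (753 to 855) were present. The 7 markers summed to 5746 to 6288 in AG, against 14430 to 27617 in BS and 6723 to 29704 in OB. In the tumour libraries Gja1 was lower than in AG (1.11 to 2879). Slc1a3 was higher (11447 to 25665), except in OB_257 (88.4). In bulk samples such as these, fewer cells of a type and less RNA per cell cannot be told apart.

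Against AG, Etv1 was the only one of the 10 ETS genes called higher. It rose in both tumour groups, Elk1, Ets2 and Elf4 fell in both, and Elk3 and Etv6 fell in OB. Calls are those of limma (linear models with a moderated variance) on log2(normalized reads + 1), with Benjamini-Hochberg adjustment over all 10576 genes tested and a threshold of 0.05. In OB against AG 1 member was higher and 5 were lower, where 16.0% of all tested genes were called higher and 19.0% lower. In BS against AG 1 member was higher and 3 were lower, against 15.6% and 19.5% of all tested genes. The 1 higher member, Etv1, passed the filter on low values through the tumour libraries alone. The share of members that were lower in OB was thus above that of all genes, and with only 10 members the other shares were near it. Without AG_1 the count of members lower in OB was 3. The median log2 change of the 10 members was -1.40 in OB and -1.03 in BS, beside -0.01 and -0.03 for all tested genes. The tumour and AG libraries did not overlap for 7 members in each comparison, where 58.3% of all tested genes in OB and 58.4% in BS did not overlap. Both comparisons use the same 3 AG libraries and are not independent of each other. Rescaling to the upper quartile moved the median of all genes to 0.19 in each comparison and the split of all calls from 1687 higher and 2008 lower to 2173 and 1655 in OB, and from 1652 and 2060 to 2143 and 1651 in BS, but changed no call of a member.

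**Figure D1:**
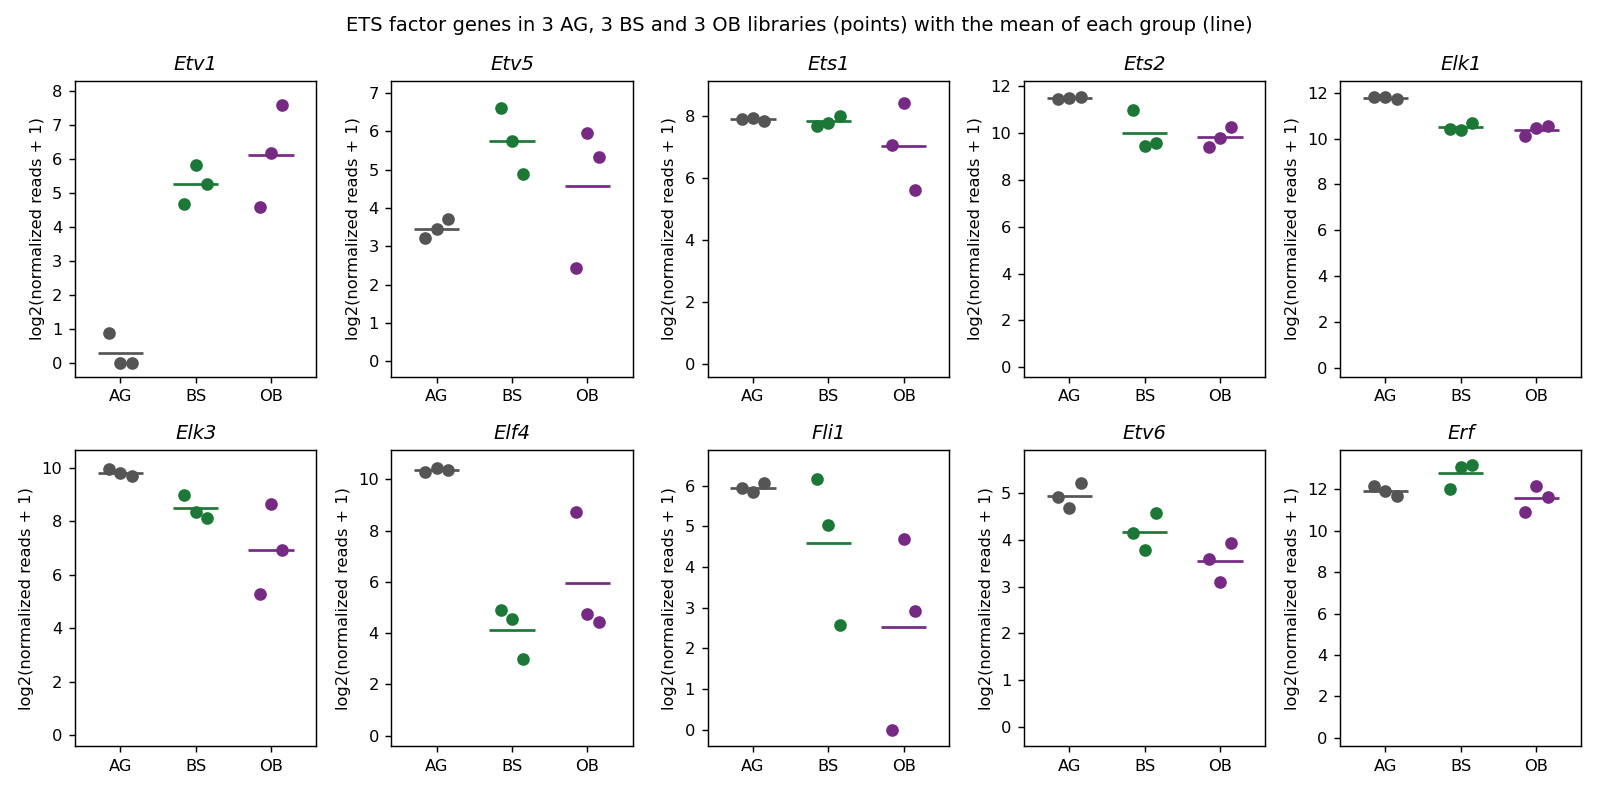
Each panel plots 1 ETS gene as log2(normalized reads + 1), with 1 point per library and a line at the mean of each group of 3. Etv1 stands near 0 in AG and above in all 6 tumour libraries, while for Elk1, Ets2 and Elf4 all 6 tumour libraries lie below the 3 AG libraries.

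Etv1 and Etv5 belong to the PEA3 group, whose members activate transcription downstream of ERK. Etv1 had 0.834, 0 and 0 normalized reads in the AG libraries, 24.3, 55.5 and 37.4 in the BS libraries and 23.2, 70.4 and 191 in the OB libraries. All 6 tumour libraries were above all AG libraries, and OB_295 was the highest. The single AG read stood against 119 reads in BS and 271 in OB, a read ratio of 118.5 in BS (exact 95% interval 20.9 to 4721) and 295.2 in OB (52.5 to 11702), intervals that cover counting error only. On the log2(normalized reads + 1) scale, which understates the change of a gene this low, Etv1 rose by 4.96 in BS (SE 0.73, adjusted p = 0.00116 by limma) and by 5.82 in OB (SE 0.73, adjusted p = 0.000495). The call was met under all 20 alternative settings in both comparisons. Etv1 passed the filter through the tumour libraries alone, however, so its test against AG could hardly come out otherwise than higher. The settings reuse the same libraries, and their agreement is no separate support. The annotation lists 3 RefSeq transcripts of Etv1. Of the exonic bases of the measured one, 7.39%, 294 of 3981, are not shared with the 1 other found in GENCODE. If reads that several transcripts share were set aside in the counting, which no source used here states, a low value of Etv1 need not be a low level of the gene.

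Etv5, a closely related activator, had 8.34, 9.86 and 12.0 normalized reads in the AG libraries, 96.4, 52.3 and 28.6 in the BS libraries and 4.42, 60.9 and 39.1 in the OB libraries. Every BS library and 2 of 3 OB libraries were above the AG range, and OB_257 was below it. Etv5 did not pass the test in either comparison, with a log2 difference of 2.29 in BS (95% interval 0.30 to 4.28, adjusted p = 0.0731 by limma) and 1.12 in OB (-0.87 to 3.11, adjusted p = 0.352). Without OB_257 it was called in both, at 2.19 in OB (adjusted p = 0.0161) and with an adjusted p of 0.00711 in BS, where that library enters only through the shared spread. It was also called in BS by edgeR (adjusted p = 0.0406) and DESeq2 (adjusted p = 0.00865) on the recovered reads and by limma fitted to AG and BS alone (adjusted p = 0.00972). The third gene of the group, Etv4, was not analysed here.

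Cic, whose product represses the PEA3 genes, had 859, 683 and 548 normalized reads in AG, 559, 545 and 507 in BS and 378, 419 and 352 in OB. It fell by 0.84 on the log2 scale in OB (adjusted p = 0.0138 by limma), with no overlap, and was not called in BS (adjusted p = 0.222). The OB call was lost without AG_1 or without AG_2.

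Ets1 and Ets2 are paired activators that bear an ERK phosphorylation site beside a pointed domain. Ets2 had 2824, 2860.1 and 2915 normalized reads in the AG libraries, 1996, 686 and 755 in the BS libraries and 666, 885 and 1215 in the OB libraries. The AG libraries lay within a narrow range above all tumour libraries, of which BS_287 was the highest. The mean was 3.11 times higher in AG than in OB and 2.50 times higher than in BS. Ets2 fell, with a log2 change of -1.68 in OB (SE 0.40, adjusted p = 0.0121 by limma) and of -1.50 in BS (SE 0.40, adjusted p = 0.0196). The OB call was met under all 20 alternatives, whereas the BS call was lost when any 1 AG library was left out, or BS_295 or BS_296 (adjusted p 0.0595 to 0.0669).

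Ets1 had 233, 243 and 223 normalized reads in the AG libraries, 204, 214 and 254 in the BS libraries and 130.4, 339 and 47.8 in the OB libraries. The AG and BS libraries overlapped closely, and the OB libraries spread to both sides of them. Neither difference passed the test: the log2 difference was -0.06 in BS (95% interval -1.42 to 1.29, adjusted p = 0.946 by limma) and -0.85 in OB (-2.21 to 0.50, adjusted p = 0.294). Without OB_287, the highest library, Ets1 was called lower in OB at -1.55 (adjusted p = 0.0244). The sign of the BS difference turned with the scaling, as given in the closing section.

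Elk1 and Elk3, with Elk4, are the ternary complex factors, which bind beside serum response factor (SRF) at promoters of immediate early genes. ELK1 activates on ERK phosphorylation, and ELK3 represses until ERK phosphorylates it. Elk1 had 3584, 3603 and 3360.5 normalized reads in the AG libraries, 1371, 1332 and 1623 in the BS libraries and 1117, 1417 and 1503 in the OB libraries. The groups of AG and tumour libraries were far apart and each was tight, so that Elk1 had the smallest standard error of the 10 members. The AG mean was 2.44 times that of BS and 2.61 times that of OB. Elk1 fell, with a log2 change of -1.29 in BS (SE 0.16, adjusted p = 0.000508 by limma) and of -1.40 in OB (SE 0.16, adjusted p = 0.000332), and was called under all 20 alternatives in both.

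Elk3 had 985, 878 and 824 normalized reads in the AG libraries, 506, 322 and 274 in the BS libraries and 37.6, 392 and 119.5 in the OB libraries. No tumour library reached the AG range, and OB_257 was the lowest. Elk3 fell, with a log2 change of -2.87 in OB (SE 0.71, adjusted p = 0.0143 by limma), and of -2.04 when OB_257 was left out (adjusted p = 0.0142). The OB call was lost without AG_1 (adjusted p = 0.0544). In BS the log2 difference was -1.33 (95% interval -2.95 to 0.29) and not called (adjusted p = 0.181), though a fit to AG and BS alone called it (adjusted p = 0.00698). The annotation lists 4 RefSeq transcripts of Elk3. Of the exonic bases of the measured one, 57.0% are not shared with the 2 others found in GENCODE.

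Elk4, the remaining ternary complex factor, was not called: it stood at 768 ± 52.1 normalized reads in BS, 799 ± 235 in OB and 880 ± 94.4 in AG, with an adjusted p of 0.560 in BS and 0.593 in OB by limma. Of the 3 ternary complex factors, 1 was thus lower in both tumour groups, 1 in OB, and 1 in neither.

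Elf4 and Fli1 are best known from blood and endothelial cells, where ELF4 takes part in lymphocyte quiescence and innate immunity and FLI1 in vessel and platelet development. Elf4 had 1262, 1384 and 1315 normalized reads in the AG libraries, 28.5, 22.4 and 6.90 in the BS libraries and 423, 25.7 and 20.6 in the OB libraries. All tumour libraries were below AG, and OB_257 stood far above the other 5. The AG mean was 68.5 times that of BS and 8.44 times that of OB. Elf4 fell, with a log2 change of -6.23 in BS (SE 1.06, adjusted p = 0.00241 by limma) and of -4.40 in OB (SE 1.06, adjusted p = 0.0125). Without OB_257 the OB change was -5.78 (adjusted p = 0.00018), and edgeR on the recovered reads did not call it (-3.01, adjusted p = 0.0651).

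Fli1 had 60.9, 56.2 and 66.4 normalized reads in the AG libraries, 71.3, 32.0 and 4.93 in the BS libraries and 0, 24.7 and 6.52 in the OB libraries. BS_287 was above the AG range, the other 5 tumour libraries were below it, and OB_257 had 0 reads. The log2 difference did not pass the test in OB (-3.42, 95% interval -6.22 to -0.62, adjusted p = 0.0598 by limma) or in BS (-1.36, adjusted p = 0.425). It was called in OB with a pseudocount of 5 (adjusted p = 0.0443), without BS_296 (adjusted p = 0.0444) and without OB_287 (adjusted p = 0.0218).

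Markers of blood and vessel cells were low in most libraries. Summed normalized reads of 2 microglia and macrophage markers, of 9 listed, were 30.9 to 102 in BS, 32.6 to 72.3 in OB and 40.0 to 50.3 in AG. For 5 endothelial markers, of 11 listed, the sums were 29.6 to 244 in BS, 11.1 to 234 in OB and 923 to 1035 in AG, and Flt1 made up 911 to 1027 of those in AG. Cdh5 and Cldn5, defining markers of endothelium, were at 0 in all 3 AG libraries and between 0 and 10.5 in the tumour libraries. Kdr, a receptor of vascular endothelial growth factor, was at 7.88 to 10.8 in AG, at 242, 84.3 and 12.8 in BS and at 6.63, 199 and 92.4 in OB. BS_287 was the highest and OB_257 the lowest tumour library for both Kdr and Fli1. The other endothelial markers did not share this order. Flt1 and Cldn5 were at 0 in BS_287, and Tie1 was highest in OB_287 (21.9). Cdh5 was at 0.839 in BS_287, 4.42 in OB_257 and 9.85 in BS_296. The part of endothelial cells in the Fli1 values was not tested. The sum of the mesenchymal markers, in AG mostly Acta2 and Col1a1 as given above, separated AG from the tumours as Elf4 did. Among tumour libraries OB_257, with Elf4 at 423, had the lowest sum of these markers (14.4). OB_295, with the highest sum (192), had Elf4 at 20.6. The part of mesenchymal cells in the fall of Elf4 was not tested.

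Etv6 and Erf encode repressors. ETV6 represses through its pointed domain, and ERF binds the same sites as activating ETS factors until ERK exports it from the nucleus. Etv6 had 29.2, 24.6 and 35.9 normalized reads in the AG libraries, 16.8, 12.8 and 22.7 in the BS libraries and 11.1, 7.61 and 14.1 in the OB libraries. All tumour libraries were below the lowest AG library. Etv6 fell by 1.40 on the log2 scale in OB (SE 0.38, adjusted p = 0.0225 by limma), while the log2 difference of -0.77 in BS was not called (adjusted p = 0.156). Etv6 was low, at most 35.9 normalized reads in any library. Its OB call was lost without any 1 AG library or without OB_287 (adjusted p 0.0569 to 0.109).

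Erf had 4609, 3890.0 and 3246 normalized reads in the AG libraries, 4214, 8794 and 9381 in the BS libraries and 1925, 4566 and 3193 in the OB libraries. BS_295 and BS_296 were the highest of the 9 libraries and BS_287 lay within the AG range. Neither comparison passed the test, with a log2 difference of 0.86 in BS (95% interval -0.02 to 1.74, adjusted p = 0.117 by limma) and -0.35 in OB (-1.23 to 0.53, adjusted p = 0.514). Without BS_287 Erf was called higher in BS at 1.23 (adjusted p = 0.0279).

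**Figure D2:**
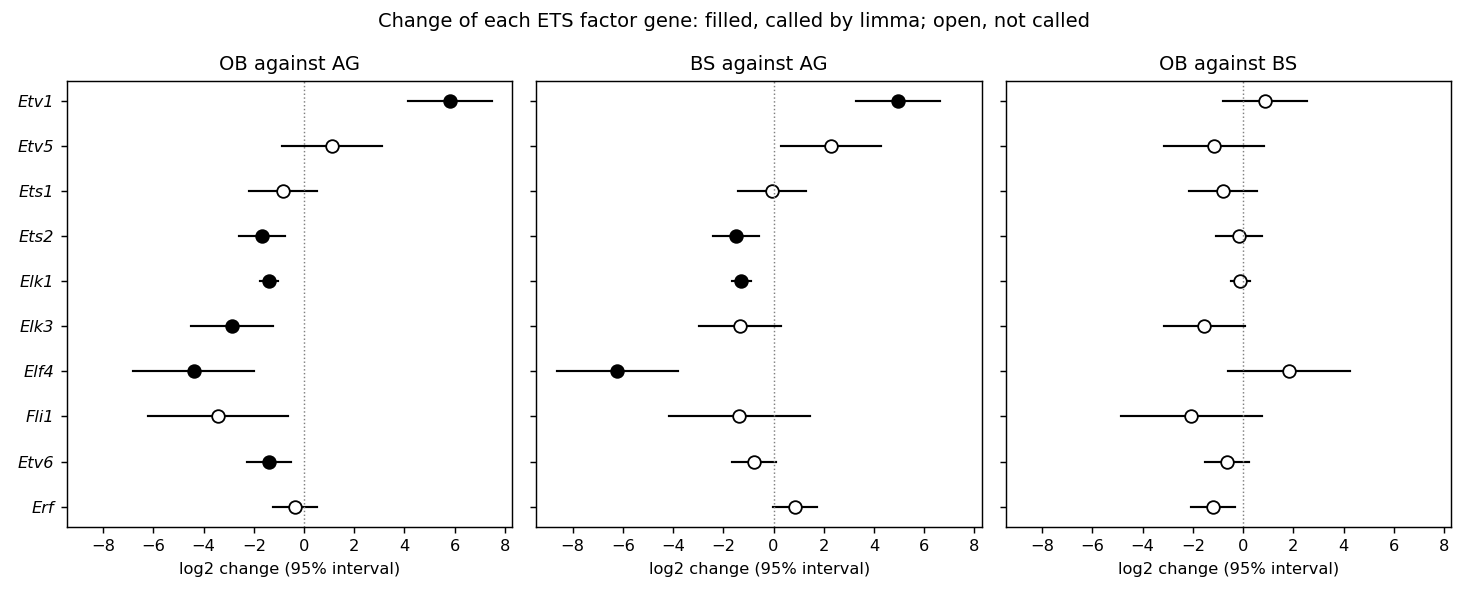
Points are the log2 change of each ETS gene with its 95% interval from limma in the 3 comparisons, filled where called and open where not. Etv1 lies at 5.82 and 4.96 against AG, Elk1 has the narrowest interval, and no point of the OB against BS panel is filled.

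The 4 members called in both comparisons with AG, Etv1, Ets2, Elk1 and Elf4, are shown here with the DNA before their transcription starts. The sequences are the 250 bases upstream of RefSeq starts in GRCm38.p6, a later build than the mm9 of the expression table, printed 5′ to 3′ on the strand of the gene. Capitals mark GGAAG, a common ETS core with its flank, or its complement CTTCC on the other strand. Etv1 is shown at both RefSeq starts, chr12:38779832-38780081 and chr12:38783461-38783710 on the plus strand, of which the second ends 202 bases from the start of the measured transcript. Ets2 is at chr16:95702157-95702406 on the plus strand, ending 332 bases from the start of the measured transcript. Elk1 is at chrX:20950609-20950858 on the minus strand and Elf4 at chrX:48463133-48463382 on the minus strand, both ending at the start of the measured transcript. A second RefSeq start of Elf4, 8813 bases away, holds no GGAAG in its 250 bases and is not shown.
Etv1, first start: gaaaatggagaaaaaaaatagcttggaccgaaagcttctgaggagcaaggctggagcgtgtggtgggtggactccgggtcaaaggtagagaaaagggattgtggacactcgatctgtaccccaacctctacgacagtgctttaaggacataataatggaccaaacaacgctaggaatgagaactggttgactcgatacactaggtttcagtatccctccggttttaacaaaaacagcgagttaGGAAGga
Etv1, second start: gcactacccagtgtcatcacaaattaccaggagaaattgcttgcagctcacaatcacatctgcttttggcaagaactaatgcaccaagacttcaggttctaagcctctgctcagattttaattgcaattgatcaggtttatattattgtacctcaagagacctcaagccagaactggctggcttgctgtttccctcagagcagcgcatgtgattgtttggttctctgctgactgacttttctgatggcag
Ets2: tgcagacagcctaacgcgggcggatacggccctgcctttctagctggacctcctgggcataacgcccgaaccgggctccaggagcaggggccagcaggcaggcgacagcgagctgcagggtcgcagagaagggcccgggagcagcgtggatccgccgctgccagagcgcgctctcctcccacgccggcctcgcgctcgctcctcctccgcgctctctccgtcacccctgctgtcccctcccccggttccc
Elk1: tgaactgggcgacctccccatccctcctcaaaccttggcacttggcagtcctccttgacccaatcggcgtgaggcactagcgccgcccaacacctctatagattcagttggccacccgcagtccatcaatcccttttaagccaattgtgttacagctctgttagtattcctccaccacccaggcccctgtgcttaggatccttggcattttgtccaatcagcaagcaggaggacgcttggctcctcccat
Elf4: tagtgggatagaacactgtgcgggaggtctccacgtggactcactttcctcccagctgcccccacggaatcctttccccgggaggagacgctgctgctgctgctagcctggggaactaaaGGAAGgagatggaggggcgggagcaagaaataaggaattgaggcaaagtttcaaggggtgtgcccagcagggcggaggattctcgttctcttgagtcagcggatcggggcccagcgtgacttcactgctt

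The motifs were chosen after the expression values were seen, and were searched on both strands of 300 bases, 250 before and 50 after each start. Among the 11 windows available for 8 members, 6 held GGAAG, against 71.4% of all 32851 RefSeq windows. The longer GGAAGTG was in 1 of the 11, a start of Etv5 with 2 copies, against 11.0% of all windows. CCGGAA was in 0 of 11 against 14.9%, and TGAATGAA, the octamer bound by Capicua, in 0 of 11 against 1.30%. GGAAGTG contains GGAAG, so that these counts overlap. These are matches of letters only, within short windows, and no binding was measured.

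OB and BS did not differ detectably in any ETS gene. None of the 10 members was called by limma, edgeR or DESeq2, though DESeq2 gave no adjusted p for Elf4. The libraries of the groups overlapped for all 10, where 9.99% of all tested genes did not overlap. At an unadjusted p under 0.05, 1 of 10 members and 1019 of 10576 genes passed in limma, and that member was Erf, lower in OB with a log2 difference of -1.21 (95% interval -2.09 to -0.33, unadjusted p = 0.0129, adjusted p = 0.400). Over all genes 0% were called higher and 0% lower by limma, and edgeR called 0 and DESeq2 237. The interval was narrow for Elk1 alone, from -0.48 to 0.27 on the log2 scale. For Etv1 it ran from -0.80 to 2.53, for Elf4 from -0.58 to 4.24 and for Elk3 from -3.16 to 0.08, so that differences of several fold between the tumour sites were not detectable with 3 libraries a group.

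The ETS genes also varied among libraries of the same tumour site. OB_257 was the lowest of the 6 tumour libraries for 7 of 10 members, namely Etv1, Etv5, Ets2, Elk1, Elk3, Fli1 and Erf, and the highest for Elf4. It was the lowest for 25.7% of all tested genes. BS_287 was the highest for 4 members, Etv5, Ets2, Elk3 and Fli1, against 20.3% of all tested genes. OB_257 also stood apart in cell type markers: Olig2 was at 2352 normalized reads there and at 13400 to 30963 in the other 5 tumour libraries, Slc1a3 at 88.4 against 11447 to 25665, and Sox10 at 30528 against 3.35 to 13223. The part of these marker differences in the ETS values was not tested. Without both OB_257 and BS_287, 2 members were called higher in OB against AG (Etv1 and Etv5) and 3 in BS against AG (Etv1, Etv5 and Erf).

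**Figure D3:**
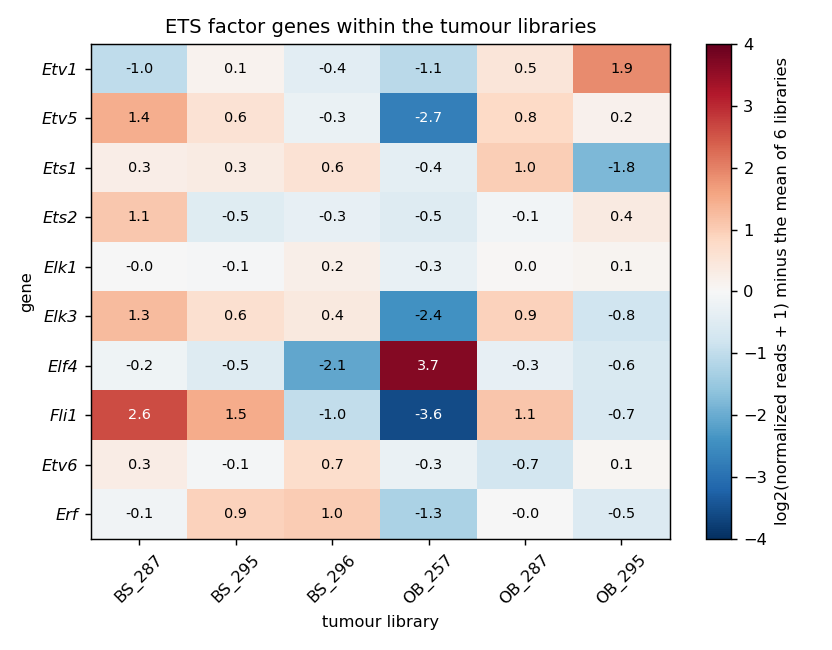
Colours and printed values give log2(normalized reads + 1) of each ETS gene in each tumour library minus the mean of the 6 tumour libraries. OB_257 is the lowest for Etv5, Elk3, Fli1 and Erf and the highest for Elf4, and the row of Elk1 is nearly even.

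Across the 6 tumour libraries, the genes whose levels ran most like each member were read as a description, among tested genes whose mean there reached 50 normalized reads. Etv1 was most like Wasf1 and Irs2 (Pearson r = 0.988 for each). Elk1 was most like Akr7a5 (r = 0.997) and Ivd (r = 0.990), and Elk3 like Spsb4 (r = 0.997) and Sdc3 (r = 0.995). Erf was most like Fosl2 (r = 0.990), itself a gene of the AP-1 family. Each r was among the 2 highest of 7146 genes or more over 6 points, and the points are libraries of 2 sites that also differ in cell type markers.

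Of 16 other ETS family genes, 8 had a row (Etv2, Elf1, Elf2, Elk4, Gabpa, Spib, Spdef and Ehf) and 3 were tested (Elk4, Gabpa and Ehf). Etv3, Elf3, Elf5, Erg, Fev, Spi1 and Spic were not analysed here. Gabpa, the DNA-binding subunit of GA-binding protein and a broadly expressed activator, was at 2941 ± 787 normalized reads in BS and 2347 ± 367 in OB, against 3245 ± 121 in AG. Its log2 difference in OB was -0.48, without overlap but not called (adjusted p = 0.110 by limma). Ehf, an epithelial ETS factor, had 10.8, 4.93 and 10.9 normalized reads in AG, 0.839, 0 and 0.985 in BS and 19.9, 0.952 and 3.26 in OB. It was called lower in BS (adjusted p = 0.0371 by limma), from 2 reads against 28, a read ratio of 0.0711 (exact 95% interval 0.00821 to 0.282), and the call was lost under 7 of 13 alternatives. Etv2, an endothelial and blood determinant, was at 0 in AG and reached 19.3 in BS_287 and 5.71 in OB_287.

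Genes that act with ETS factors were called about as often as all genes. Of 16 listed regulators and partners, 8 were tested: 2 fell in OB (Cic and Mrtfa), 1 fell in BS (Mrtfa), and 0 rose, with a median log2 change of -0.19 in OB and -0.19 in BS. Over all tested genes 19.0% fell in OB and 19.5% in BS, so the counts of this short list are near the background. Mrtfa, a coactivator of SRF that competes with ternary complex factors, was at 57.2 normalized reads in BS and 49.4 in OB, against 152 ± 45.9 in AG. Its OB call was lost without AG_1, and its BS call without any 1 AG library or without BS_296.

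Genes that respond to ERK were called lower more often than all genes in OB, and about as often in BS. Of 15 listed, 14 were tested: in OB 0 rose and 7 fell, with a median log2 change of -1.38, and in BS 2 rose and 3 fell, with a median of -0.10. Over all tested genes 16.0% rose and 19.0% fell in OB, and 15.6% rose and 19.5% fell in BS. Without any 1 AG library the list counts dropped to 3 lower in OB, and to 0 higher and 1 lower in BS, partly because Fosl1 then no longer passed the filter. In OB 2 genes were called higher without OB_257 and by DESeq2, and 1 by edgeR. Fosl1, an AP-1 subunit, fell in both, to 2.26 normalized reads in BS (adjusted p = 1.5e-05 by limma) and 3.05 in OB (adjusted p = 2.11e-05), with 247 ± 68.8 in AG. It passed the filter through the AG libraries alone, so its test could hardly come out otherwise than lower. Epha2, an ephrin receptor, fell from 7262 ± 424 in AG to 52.9 ± 32.8 in BS (adjusted p = 1.51e-05) and 73.5 ± 28.1 in OB (adjusted p = 2.73e-05). Dusp4, a nuclear phosphatase of ERK, fell in OB from 1632 ± 48.2 to 173 ± 112 (adjusted p = 0.00323), and Ccnd1, the gene of cyclin D1, from 43332 ± 1785 to 9219 ± 4554 (adjusted p = 0.00119).

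The Sprouty genes Spry2 and Spry4, feedback inhibitors of receptor signalling, were the 2 genes of the list called higher in BS. Spry4 had 608, 654 and 596 normalized reads in the AG libraries, 2456, 7435 and 11887 in the BS libraries and 544, 6565 and 5017 in the OB libraries. All BS libraries and 2 OB libraries were above AG, and OB_257 was below it, the same placing as for Etv5. Spry4 rose by 3.28 on the log2 scale in BS (adjusted p = 0.0241 by limma) and was not called in OB (2.08, adjusted p = 0.112). Spry2 had 756, 722 and 736 normalized reads in AG, 2898, 6466 and 9248 in BS and 399, 5575 and 2158 in OB, a rise of 2.92 in BS (adjusted p = 0.0277) and a difference of 1.19 in OB that was not called (adjusted p = 0.303). Both BS calls were lost without any 1 AG library, BS_295 or BS_296. Without OB_257, both were called in OB, Spry4 at 3.21 (adjusted p = 0.0038) and Spry2 at 2.23 (adjusted p = 0.0137). Spry4 was also called in OB by edgeR (adjusted p = 0.0343) and DESeq2 (adjusted p = 0.00238), and Spry2 by DESeq2 (adjusted p = 0.0373). The difference between OB and BS was not called for Spry2 (adjusted p = 0.551) or Spry4 (adjusted p = 0.705). Dusp6, a cytoplasmic ERK phosphatase often read as a gauge of the pathway, was not called in BS (adjusted p = 0.903) or OB (adjusted p = 0.583), and was called higher with BS_287 and OB_257 both left out, at 0.92 in BS (adjusted p = 0.00125) and 0.39 in OB (adjusted p = 0.0448).

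Of 9 genes of the serum response, where ternary complex factors act with SRF, 8 were tested: 3 fell in OB (Egr2, Junb and Ier2), 2 in BS (Egr2 and Junb) and 0 rose, with a median log2 change of -1.31 in OB and -0.79 in BS. Over all tested genes 19.0% fell in OB and 19.5% in BS. The OB count dropped to 1, Junb, without any 1 AG library, OB_257 or OB_295, and with upper-quartile rescaling, and the BS count to 1 without any 1 AG library, BS_287, BS_296 or OB_295. Nr4a1, an orphan nuclear receptor gene, was called higher in OB with upper-quartile rescaling, by edgeR and DESeq2, and without BS_287 or OB_287 (adjusted p 0.0189 to 0.0484). Junb, an AP-1 subunit, fell from 4451 ± 1370 normalized reads in AG to 346 ± 256 in BS (adjusted p = 0.000716 by limma) and 277 ± 59.2 in OB (adjusted p = 0.000676), and was called under all 20 alternatives in both.

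Matrix proteases and their receptor, a class of genes with known ETS and AP-1 sites, had a lower median change than the ERK, serum response, receptor and regulator lists. Of 8 listed, 6 were tested, and the same 4 fell in both comparisons, Mmp3, Mmp13, Mmp14 and Plaur, with a median log2 change of -4.28 in OB and -4.66 in BS. Mmp3 and Mmp13 passed the filter through the AG libraries alone, so their tests could hardly come out otherwise than lower. Both enter the counts and the medians. Over all tested genes 19.0% fell in OB and 19.5% in BS. Without any 1 AG library the count was 2 in OB and 1 in BS, since Mmp3 and Mmp13 then no longer passed the filter and Mmp14 lost its call in BS. Mmp3, stromelysin, was at 1658 ± 73.5 normalized reads in AG and had 0 reads in every tumour library. Against a floor of 3 reads per library, this is at least 574-fold lower in BS and at least 528-fold lower in OB. Plaur, the urokinase receptor gene, fell from 1544 ± 210 in AG to 119 ± 127 in BS (adjusted p = 0.00356 by limma) and 59.1 ± 20.4 in OB (adjusted p = 0.00233). The sum of the mesenchymal markers given above, in AG mostly Acta2 and Col1a1, moved with this list. It was 89747 to 103473 normalized reads in AG against at most 192 in a tumour library. The part of mesenchymal cells in the list was not tested.

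**Figure D4:**
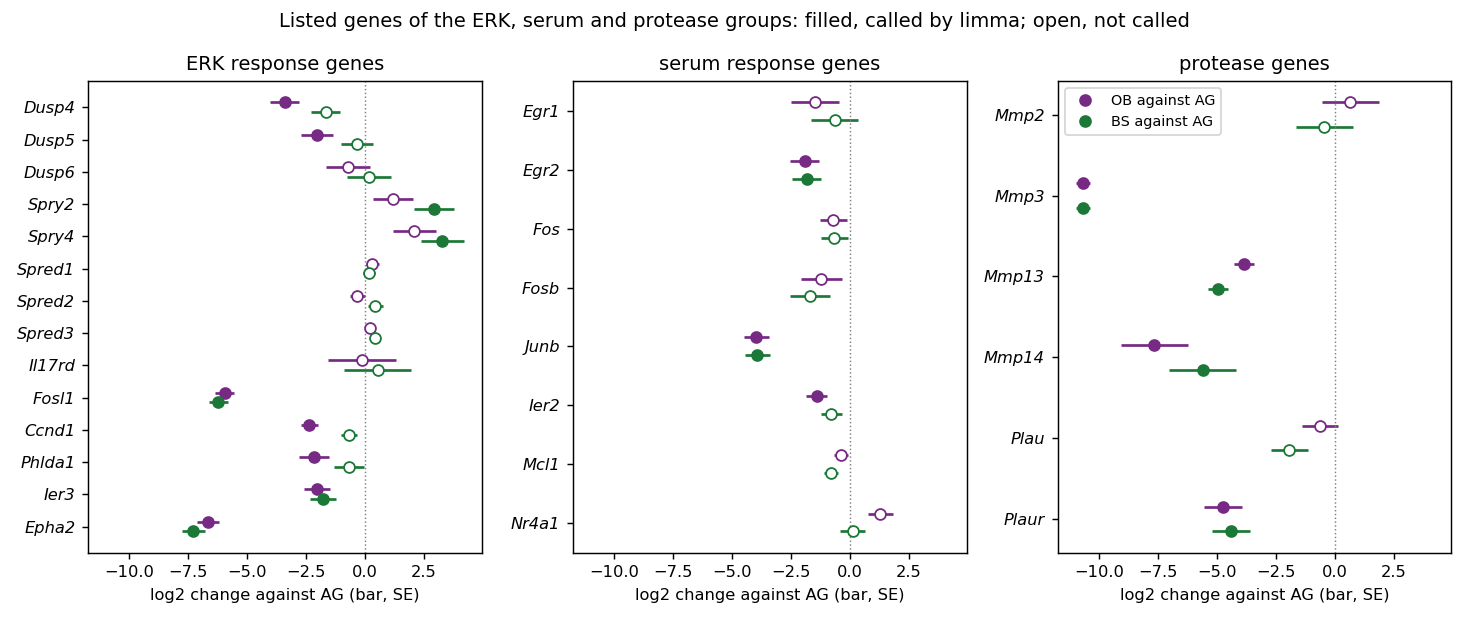
Points are the log2 change against AG with its standard error for the tested genes of the ERK, serum response and protease lists, in OB (purple) and BS (green), filled where called by limma. Spry2 and Spry4 are to the right in BS, and Fosl1, Epha2, Junb and 4 protease genes are far to the left in both, the Mmp3 points resting on 0 tumour reads and the pseudocount.

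Of 10 listed growth factor receptor genes, whose products feed the ERK pathway, 7 were tested. In OB 2 rose (Fgfr3 and Erbb3) and 2 fell (Met and Erbb2), and in BS 1 rose (Fgfr3) and 1 fell (Met). Over all tested genes 16.0% rose and 19.0% fell in OB, and 15.6% rose and 19.5% fell in BS. The counts of this short list are thus near the background. Fgfr3 was low throughout, at 11.6 normalized reads in BS and 25.8 in OB, against 0.726 in AG. It passed the filter through tumour libraries alone, so its tests against AG could hardly come out otherwise than higher. Met, the receptor of hepatocyte growth factor, was at 175 ± 300 in BS and 30.0 in OB, against 5776 ± 266 in AG, and its BS call was lost by edgeR (adjusted p = 0.0544). Erbb3, a neuregulin receptor, was at 2546, 70.4 and 1365 in the OB libraries against a mean of 17.1 in AG, and its call was lost without any 1 AG library, OB_257 or OB_295.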

How the data were processed

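The authors deposited 1 table of signal values, reads per RefSeq transcript divided by a size factor for each of 9 libraries (3 AG, 3 BS, 3 OB). Per the submitters' processing notes, the tools were HISAT2 2.1.0, featureCounts of Subread 1.6.2, bcl2fastq 1.8.4 and DESeq2 1.20.0, and the build mm9. How strand and reads shared between transcripts were handled is not given in the sources at hand. Of all values, 100.0% were whole reads within 0.05 once the size factor was undone. Of 16260 rows, 16202 were named from RefSeq and 41 from GENCODE tables, 17 stayed unnamed, and rows of 1 symbol were added. Each row held at least 7 reads over the 9 libraries. Rows of genes with 1 RefSeq transcript had a median of 258.6 normalized reads, those with 2 of 12.57 and those with 3 or more of 6.815, so levels were not compared between genes.

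Genes with at least 10 normalized reads in 3 libraries were tested two-sided with limma 3.58.1 (R 4.3.3), in 1 fit of all 9 libraries with a variance trend, on log2(value + 1). P-values were adjusted per comparison by Benjamini and Hochberg. The method was tested on simulated reads, drawn with the same dispersion for every gene and group. That does not cover groups of unequal spread, such as Elf4 here (157 ± 231 normalized reads in OB, 1321 ± 60.8 in AG). Recovered reads were also tested with edgeR 4.0.16, which called 3724 genes for OB and 3679 for BS against AG and 0 between the tumour sites, and with DESeq2 1.42.0. Other alternatives were pseudocounts of 0.5 and 5, filters, upper-quartile rescaling, fits of the compared groups, no variance trend, each library left out, a replicate block, and BS_287 and OB_257 both left out, chosen after seeing the data. Named genes are all members, other ETS genes, up to 4 called genes of each list of largest change and the 2 genes most like a member. Dusp6 was named after its values were seen. Some genes that this rule or the lists held are not reported here, and the list counts leave them out. The members and lists were chosen with earlier results of these data known. Promoter sequences are from RefSeq (GRCm38.p6), with windows for 8 of 10 members. Exact (Clopper-Pearson) 95% intervals and the floor of 3 reads cover counting error only. Figures were drawn with matplotlib 3.10.9.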

Additional observations from a re-analysis of the deposited data

How the results depend on the processing

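Of the member changes recomputed under the alternatives, 566 kept direction and call, 17 gained a call, 11 lost one and 10 turned direction. Those that turned were small and not called. Ets1 in BS against AG became 0.15 with upper-quartile rescaling and 0.0015 with BS_287 and OB_257 both left out, and ran from -0.16 to 0.0015 with 1 library left out. In OB against BS, with both left out, Ets2 became 0.53 and Etv5 0.33, and with 1 library left out Ets2 ran from -0.46 to 0.31 and Elk1 from -0.19 to 0.023. The titles BS_287 and OB_287 share a number, as do BS_295 and OB_295, with no meaning given. Deviations of same-numbered libraries from their group means correlated at 0.069 and 0.299, and those of unlike numbers at -0.412 to 0.291. Such correlations cannot show whether a number marks an animal, so OB and BS may be paired. The libraries were not taken as pairs in the main fit. With the replicate block, 0 members and 0 genes were called, Elf4 became -0.13 and Elk1 0.11. DESeq2 gave no adjusted p for Elf4 in any comparison.

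With 1 library left out, members higher ran from 1 to 2 in both comparisons with AG, and members lower from 3 to 6 in OB and 2 to 4 in BS. Members higher were 2 in OB and 3 in BS with both left out, and 2 in BS by edgeR, DESeq2 or a fit of the compared groups. All genes called ran from 2086 to 4123 in OB against AG (2086 without AG_1, 2086 without AG_2, 2098 without AG_3, 3695 with all libraries) and from 2001 to 4344 in BS against AG (2035, 2001 and 2023 without each AG library, 3712 with all). In OB against BS, genes called were 0 with all libraries, 0 to 67 with 1 left out (67 without OB_287), 4 and 6 with pseudocounts of 0.5 and 5, 2 with no variance trend, 237 by DESeq2 and 63 with both left out. Low read counts limit Etv1, Etv5, Etv6 and Fli1, which had under 200 normalized reads in every library.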
